A study of Mus musculus with 6 samples.

Results

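The tumour necrosis factor (TNF) ligands, their receptors, and the TRAF adaptors and kinases that bind those receptors were described in mouse hematopoietic stem and progenitor cells (HSPCs). A gene was a member where its symbol began with Tnfrsf or Tnfsf, or was one of a list of older names that held Tnf, Lta, Ltb, Ltbr, Cd27, Cd40, Cd40lg, Cd70, Fas, Fasl, Ngfr, Eda2r, Tradd, Ripk1, Traf1 to Traf5, Traf7 and Map3k14. The table of 23997 symbols held 53 of them, and 46 averaged 1 or more normalized counts across the 6 libraries, as did 15662 symbols in all. The rule used the mean over all libraries and did not use the difference between the genotypes. The 7 genes under that mean were Cd40lg, Cd70, Fasl, Ngfr, Tnfrsf9, Tnfrsf11b and Tnfsf18, with values from 0 to 3.04 in any library, and Cd70 and Tnfsf18 had no read in any. Tnfrsf19 lay just inside the limit at a mean of 1.19, and Tnfrsf9 lay just outside it at 0.842.

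RNA-seq libraries were made from Lin-Sca-1+c-Kit+ cells sorted from the bone marrow of mice on the C57BL/6 background, aged 6 to 8 weeks and labelled as normal hematopoiesis. There were 3 wildtype libraries and 3 Mirc11-/- libraries, whose mice lacked the microRNA cluster that holds miR-23a, miR-27a and miR-24-2. Each library came from a separate RNA preparation of cells of several pooled mice, and all 6 libraries carried the same batch label. A normalized count here is the number of reads in a gene after scaling for the size of the library, with no division by gene length, and the libraries held 15029379 to 17051541 reads in genes. In the check of the genotype labels, Mir23a, Mir27a and Mir24-2 had 51, 54 and 73 reads over the wildtype libraries and 0 in each Mirc11-/- library.

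TNF family ligands are trimers, most of them held on the cell surface, that cluster their receptors. Among the receptors with a death domain (such as Tnfrsf1a, Fas and Tnfrsf10b), Tnfrsf1a recruits the adaptor Tradd and the kinase Ripk1. Receptors of this class can signal for survival or for cell death. The other receptors bind TRAF proteins directly, and many of them, among them Ltbr, Cd40 and Tnfrsf12a, release Map3k14 (NIK), the kinase of the non-canonical NF-κB pathway, from a complex of Traf2 and Traf3 that otherwise keeps it low. In bone marrow, TNF and its relatives are known as regulators of stem cell survival, of lymphoid development and of the response to infection.

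The microRNAs of the deleted cluster are shown because their seeds, bases 2 to 8 in capitals, define the matches searched for in the members. The mature sequences, written 5′ to 3′, are those of RefSeq on GRCm38.p6, at chr8:84208563-84208583, chr8:84208727-84208747 and chr8:84208875-84208896 in that order, all on the plus strand.
mmu-miR-23a-3p: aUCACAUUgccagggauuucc
mmu-miR-27a-3p: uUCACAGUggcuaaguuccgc
mmu-miR-24-3p: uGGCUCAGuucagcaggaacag
The seeds of miR-23a and miR-27a resemble each other, and that of miR-24 does not resemble either.

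Matches to these seeds were searched in the 3′ UTRs of the GENCODE vM21 transcripts, which are on GRCm38. A match was the complement of bases 2 to 8, with or without an A after it, or of bases 2 to 7 followed by an A. Such a match was present in 26 of the 46 members (56.5%), against 52.2% of the 13557 tested genes with a 3′ UTR. For miR-27a the share was 41.3% of members against 28.0% of all genes, for miR-24 it was 37.0% against 25.6%, and for miR-23a it was 15.2% against 23.7%. Members with a match had longer 3′ UTRs than those without, with medians of 1944 and 531 bases. Sites of members to which the results below return are printed 5′ to 3′ on the strand of the transcript, with the matched bases in capitals. They are those of the 5 matched members with an unadjusted p under 0.05 and, as an example with a narrow interval around 0, that of Tnfrsf1a; Eda2r holds 6 matches, of which the longest is printed. Those of Map3k14 (chr11:103219950-103219957 and chr11:103220511-103220517), Tnf (chr17:35199588-35199594), Tnfrsf26 (chr7:143608085-143608092 and chr7:143609655-143609661), Eda2r (chrX:97334887-97334894) and Tnfrsf8 (chr4:145267520-145267526 and chr4:145268241-145268247) lie on the minus strand, and that of Tnfrsf1a (chr6:125362174-125362181) lies on the plus strand.
Map3k14, miR-27a: gcattaagttcACTGTGAAtcatttgttgg
Map3k14, miR-24: actagaatgcaCTGAGCCttcaggtcatt
Tnf, miR-27a: agacatgttttCTGTGAAaacggagctga
Tnfrsf26, miR-27a: ccagtccaagtACTGTGAAtgctgtcatat
Tnfrsf26, miR-27a, the second site: gaggttttgtgCTGTGAActcgtaagcta
Eda2r, miR-24: atcaaatgtgtCTGAGCCAaggtttagacc
Tnfrsf8, miR-24: gatgacaggctTGAGCCActatgccagac
Tnfrsf8, miR-27a: agcccacgcccACTGTGAggaggccgttc
Tnfrsf1a, miR-24: ccgaggactgcCTGAGCCAgccacttgtga
Tnfrsf14 and Traf4 had no match to any of the 3 seeds. A match is a description of the sequence, and binding was not measured.

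The sorted cells carried the markers of their gate. Kit was at 8577 to 9416 normalized counts in the wildtype and 6644 to 9950 in the Mirc11-/- libraries, Ly6a (Sca-1) was at 374 to 683 over all 6, and Cd3e, whose protein was in the lineage cocktail used to exclude T cells, was at 0 to 2.01. Itgam, the gene of the excluded antigen CD11b, was at 1263 to 1653. The libraries of the Mirc11-/- group did not lie together: on the first principal component over all tested genes, which took 31.3% of the variance, Mirc11-/- library 3 (-19.5) lay within the wildtype range of -26.2 to -13.5, whereas libraries 1 and 2 lay at 54.6 and 25.5. The summed count of 15 erythroid markers moved with that split, at 21067 to 29695 in the wildtype, 52808 and 48869 in Mirc11-/- libraries 1 and 2, and 22003 in library 3. All 15 of these genes were above every wildtype library in both libraries 1 and 2. The sum of 12 stem cell genes was 40531 to 48525 in the wildtype and 26981, 35238 and 48564 in Mirc11-/- libraries 1 to 3. The sum of 15 immediate-early genes (Fos, Jun and Egr1 among them), which cells switch on within minutes of a stimulus or of handling, was 181288 to 271902 in the wildtype and 75139, 123201 and 126060 in the Mirc11-/- libraries. For the other cell types, the sums of B cell markers were 554 to 616 in the wildtype and 480 to 787 in the Mirc11-/- libraries, those of T and NK cells 2537 to 2788 and 1283 to 2907, those of monocytes 7457 to 10160 and 5889 to 13096, and those of neutrophils 11554 to 17624 and 8979 to 19798. The sums for dendritic cells were 1580 to 1839 and 1416 to 1724, for mast cells and basophils 561 to 889 and 717 to 2121, for megakaryocytes 1509 to 2130 and 1840 to 2481, and for stromal and endothelial cells 1083 to 1651 and 820 to 1654. The ranges of the 2 genotypes overlapped for each of these 8 lists, but single genes in them did not always overlap. Of 9 neutrophil genes, 3 (33.3%) were higher and 1 (11.1%) lower with no overlap, against 6.42% and 6.53% of all genes. The other lists had at most 1 such gene in each direction. Some sums rest mostly on 1 gene, such as Nkg7 for T and NK cells (wildtype mean 2556) and Cd79b for B cells (442). The mast cell and basophil sum was 2121, 1011 and 717 in Mirc11-/- libraries 1 to 3, and the monocyte sum 13096, 9717 and 5889. Both fell in the order of the erythroid sum. In the same libraries the B cell sum was 480, 614 and 787, and the dendritic cell sum 1416, 1438 and 1724. The stromal and endothelial sum was 820, 1199 and 1654, and all of these rose in the order of the stem cell sum. The part of these genes in the results below was not tested, for any member.

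**Figure D1:**
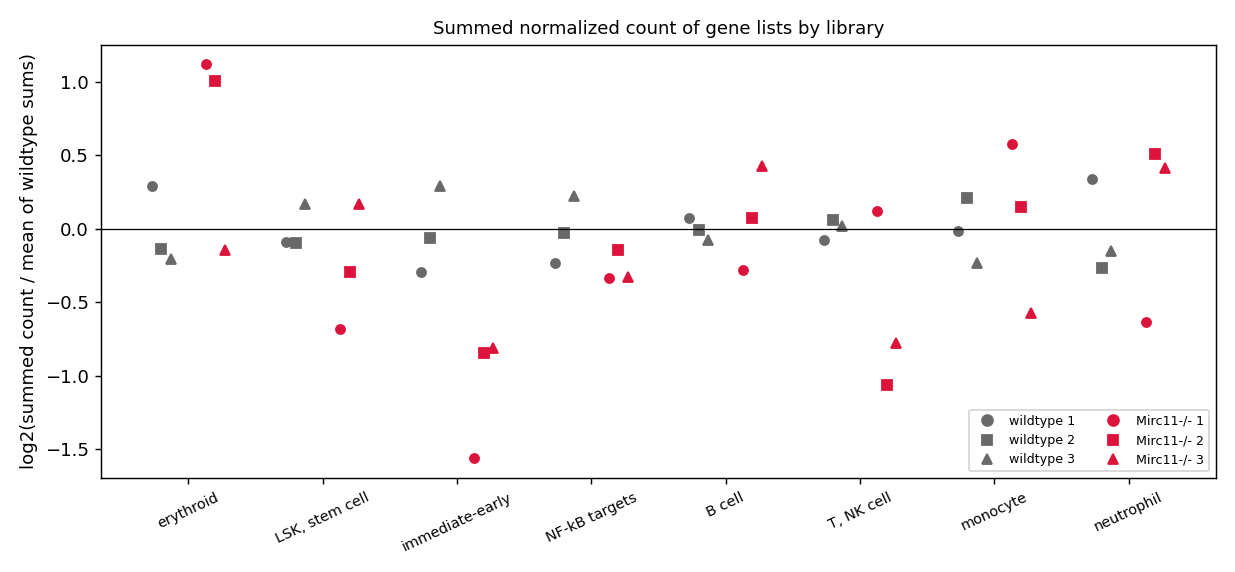
Summed normalized count of gene lists in each library, as log2 of its ratio to the mean of the wildtype sums (vertical axis). Gray symbols are wildtype, red are Mirc11-/-, and the symbol shape gives the replicate number. The lists drawn are erythroid, stem cell, immediate-early, NF-κB target, B cell, T and NK cell, monocyte and neutrophil. The dendritic, mast cell and basophil, megakaryocyte, and stromal lists are not drawn. The erythroid sums of Mirc11-/- libraries 1 and 2 sit above every other library while library 3 lies among the wildtype, and the immediate-early sums of all 3 Mirc11-/- libraries sit below every wildtype library.

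The HSPCs expressed the receptors for TNF and lymphotoxin at higher levels than most of the ligands. Levels of different genes were compared only as normalized count per kb of exon. On that scale the costimulatory receptor Cd27, at 954 ± 119 in the wildtype and 787 ± 237 in the Mirc11-/- group (SD, n = 3 libraries each; below, ± is an SD for counts and an SE for log2 differences), and Tnfrsf1a (TNFR1), at 759 in the wildtype and 748 in the Mirc11-/- group, had the 2 highest means over the 6 libraries. The next were Traf7 (mean 410 over the 6 libraries), Tnfrsf1b (TNFR2, 390), Tnfrsf21 (death receptor 6, 353), the lymphotoxin subunit Ltb (344), Ltbr (308) and Tradd (298). The ligand Tnf itself was at 158 per kb in the wildtype and 95.4 in the Mirc11-/- group. At the other end, Tnfrsf19, Lta, Tnfsf15, Tnfrsf8, Eda2r, Cd40, Tnfsf13b and Tnfrsf11a were all under 4 per kb in both groups.

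**Figure D2:**
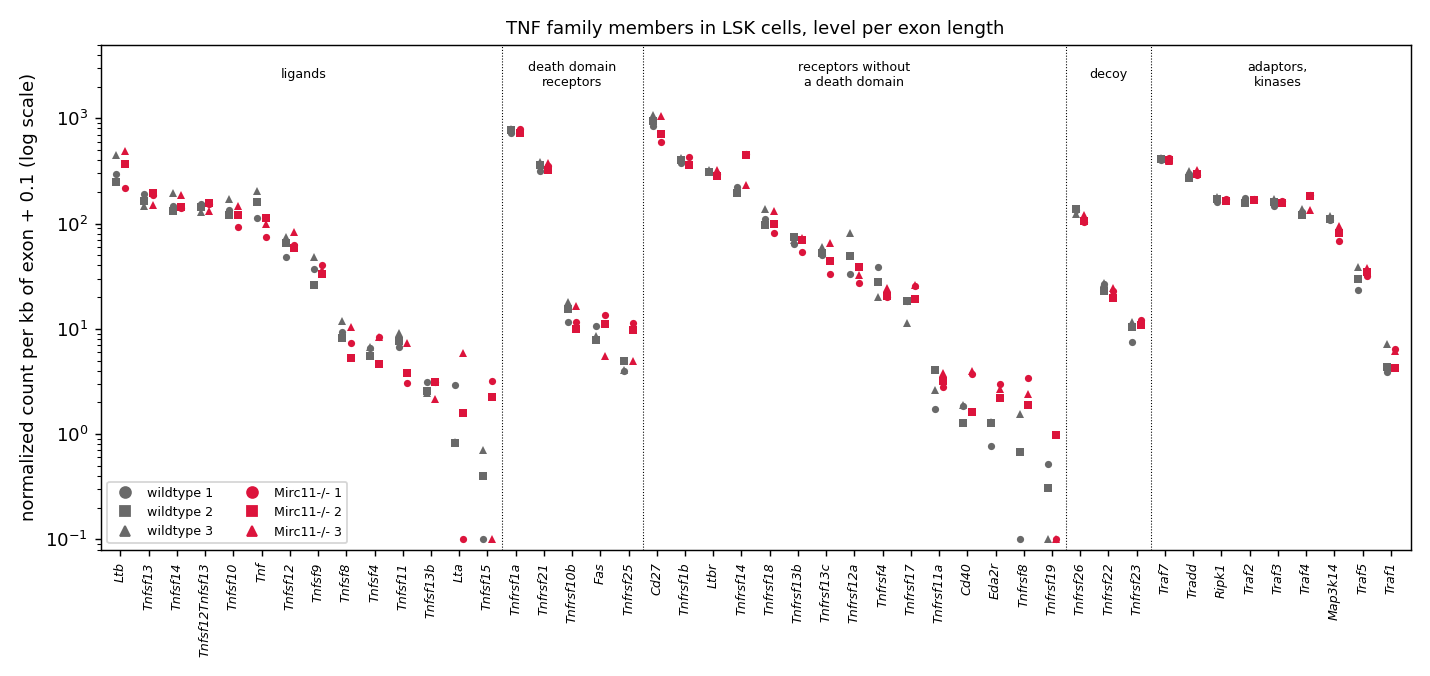
Normalized count per kb of exon plus 0.1, on a log scale, for the 46 members in each library, grouped by role and ordered by level within a role; gray symbols are wildtype, red are Mirc11-/-, and shapes mark the replicate number. The levels run from about 1000 for Cd27 to the floor of the axis, where a symbol at 0.1 is a library with no read, and the symbols of the 2 genotypes lie on top of each other for most of the well expressed members.

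Whether the deletion of Mirc11 changed the family was asked with limma on log2(normalized count + 1) over all 15662 genes, with Benjamini-Hochberg adjustment over all of them. No member passed an adjusted p of 0.05 in either direction, where the background over all genes was 0.00638% higher and 0.0255% lower. edgeR on the recovered reads also called no member, against 0.00638% and 0.0192% of all genes, and DESeq2 called 1, Tnfrsf14, as higher and none as lower, against 0.251% and 0.576% of the genes it tested. At an unadjusted p under 0.05, 4 members (8.70%) were higher, against 4.15% of all genes, and 3 (6.52%) were lower, against 4.09%. The libraries of the 2 genotypes did not overlap for 5 members that were higher in Mirc11-/- and for 2 that were lower, against a background of 6.42% and 6.53% of all genes, or 10.9% and 4.35% of the members. The median log2 difference of the members (Mirc11-/- minus wildtype) was 0.02, against 0.00 over all genes, with 25 members above 0 and 21 below it. With 3 libraries in each group, an exact two-sided permutation test of a single gene cannot go below p = 0.1.

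**Figure D3:**
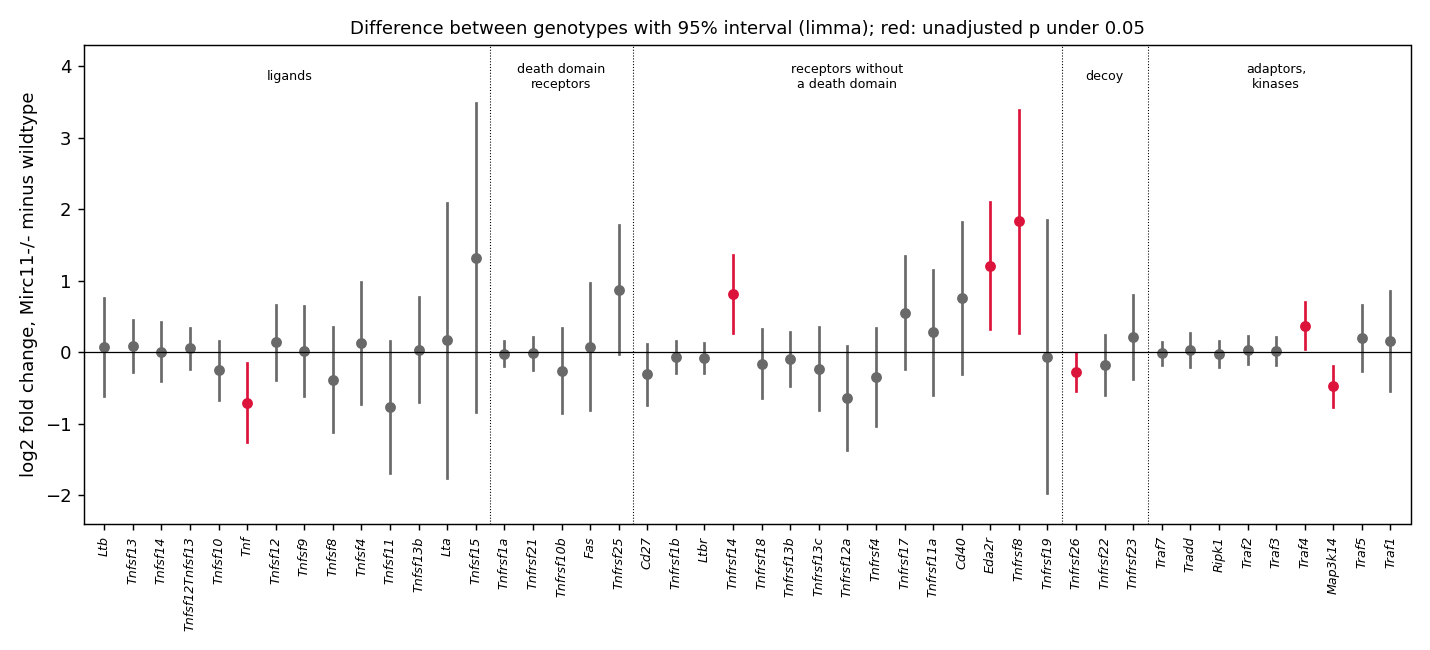
Difference between the genotypes for each member, as log2 fold change on the scale of log2(normalized count + 1), with its 95% interval from limma (n = 3 libraries in each group) and in the order of the levels within each role. Red marks the 7 members with an unadjusted p under 0.05, and none of the 46 passed the adjusted threshold.

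Since 1 library decided many calls, each result was also computed without Mirc11-/- library 3. That library lay among the wildtype on the first principal component of these same data, so leaving it out favours larger differences. The limma p-values without it, here and below, are a description and give no further support. limma then called 2 members as higher (Tnfrsf14 and Traf4) and 2 as lower (Map3k14 and Cd27), against a background of 1.94% and 1.46% of 15633 genes. Over the members, Mirc11-/- libraries 1 and 2 together lay above every wildtype library for 9 (19.6%) and below every wildtype library for 7 (15.2%), where the same held for 19.5% and 18.9% of all genes. Those shares of the members were near the background.

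Among the 14 ligands, 10 had a positive and 4 a negative log2 difference, with a median of 0.04, and none passed the adjusted threshold. Tnf, the founding ligand of the family, was the only one with an unadjusted p under 0.05. It had 183, 263 and 331 normalized counts in the wildtype libraries and 121, 185 and 163 in the Mirc11-/- libraries. The Mirc11-/- values were all in the lower part of the range, but library 2 exceeded the lowest wildtype library, so the groups overlapped. The log2 difference was -0.71 ± 0.24 (SE, 95% interval -1.26 to -0.16), with a limma adjusted p of 0.502 and a DESeq2 adjusted p of 0.198. Tnf is a rapid-response gene, and the immediate-early sum was lower in all 3 Mirc11-/- libraries, as given above; its part in the value of Tnf was not tested. In bulk RNA of this kind, fewer cells that express a gene and less RNA per cell cannot be told apart.

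The neighbours of Tnf on chromosome 17, between 35194439 and 35205351, are both lymphotoxin genes. Ltb, which anchors lymphotoxin to the membrane, had the highest level per kb of any ligand. It was at 451, 376 and 681 normalized counts in the wildtype and 327, 555 and 740 in the Mirc11-/- libraries, so its spread between libraries of 1 genotype was wider than the difference between the genotypes (log2 0.07, 95% interval -0.61 to 0.76). Lta, the soluble subunit, was scarce, at 0 to 8.05 in all 6 libraries.

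Tnfsf14 (LIGHT), a ligand of both Tnfrsf14 and Ltbr, was at 272, 242 and 361 normalized counts in the wildtype and 259, 267 and 347 in the Mirc11-/- libraries. The means of 292 and 291 differed far less than the libraries of either group did, and the 95% interval of the log2 difference was -0.41 to 0.42. Tnfsf13 (APRIL), a ligand of the B cell receptors Tnfrsf13b and Tnfrsf17, was at 314, 269 and 238 in the wildtype and 305, 322 and 244 in the Mirc11-/- libraries. The values of Tnfsf13 are uncertain, since 60.0% of its exon bases also belong to Tnfsf12Tnfsf13, the read-through transcript that joins it to its neighbour. Tnfsf12 (TWEAK), the ligand of Tnfrsf12a, shares 48.3% of its exon bases with the same transcript. The log2 differences of Tnfsf12, Tnfsf13 and the read-through transcript were 0.14, 0.08 and 0.05, each with an interval that held 0.

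Of the other ligands, Tnfsf10 (TRAIL), which binds the death receptor Tnfrsf10b, was at 747 ± 137 in the wildtype and 630 ± 140 normalized counts in the Mirc11-/- group (log2 -0.25, 95% interval -0.67 to 0.16). Tnfsf11 (RANKL), known for driving osteoclast formation, was low, at 14.8, 16.9 and 20.3 against 6.62, 8.31 and 16.1. Libraries 1 and 2 of the Mirc11-/- group lay below every wildtype library and library 3 lay among them (log2 -0.77 ± 0.41, limma adjusted p = 0.633). This was the order of the stem cell sum and of the B cell, dendritic cell and stromal sums, whose part in the value was not tested. Tnfsf8 (CD30 ligand) was at 37.0 ± 7.02 and 28.8 ± 9.83, with libraries 1 and 2 below every wildtype library. Tnfsf15 (TL1A), the ligand of Tnfrsf25, had 3 reads over the wildtype libraries and 18 over the Mirc11-/- libraries, at 0, 0.992 and 2.03 against 10.4, 7.27 and 0 normalized counts. All of its Mirc11-/- reads were thus in libraries 1 and 2, and no fold is given against so few reads. Tnfsf4 (OX40 ligand), Tnfsf9 (4-1BB ligand) and Tnfsf13b (BAFF, the survival factor of B cells) had means of 11.3, 47.6 and 17.9 in the wildtype and 12.8, 47.0 and 18.6 in the Mirc11-/- group.

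The 5 death domain receptors gave no call, with a median log2 difference of -0.02. Tnfrsf1a, the receptor through which TNF recruits Tradd and Ripk1, was at 1892, 1984 and 2026 normalized counts in the wildtype and 2069, 1858 and 1886 in the Mirc11-/- libraries. The highest and the lowest of these 6 values both belonged to the Mirc11-/- group. The log2 difference was -0.02 with a 95% interval of -0.20 to 0.16, so that a change of either sign beyond those bounds lay outside the interval. Tnfrsf21, a death domain receptor known from lymphocytes and neurons, was at 1310, 1479 and 1592 against 1446, 1325 and 1557 (95% interval -0.24 to 0.21). Both genes are among 9 members whose interval lay within 0.3 of 0 on the log2 scale, together with Tnfrsf1b, Ltbr, Tradd, Ripk1, Traf2, Traf3 and Traf7.

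Tnfrsf10b, the mouse TRAIL receptor, was at 63.1, 84.4 and 98.3 in the wildtype and 63.4, 54.0 and 88.5 in the Mirc11-/- libraries. The groups overlapped, and the log2 difference was -0.26 (95% interval -0.86 to 0.34). Fas, the receptor of the killing ligand Fasl, was at 18.3 ± 3.04 and 20.4 ± 8.44. Tnfrsf25 (death receptor 3) had 8.88, 10.9 and 9.12 normalized counts in the wildtype and 25.5, 21.8 and 11.1 in the Mirc11-/- libraries. All 3 Mirc11-/- values lay above the wildtype, library 3 by a small margin. The log2 difference was 0.87 ± 0.40 with a limma adjusted p of 0.601, on 29 reads in the wildtype and 59 in the Mirc11-/- group. The Mirc11-/- libraries stood in the order of the erythroid, mast cell and basophil, and monocyte sums, whose part in this value was not tested.

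Among the 15 receptors without a death domain, 6 had a positive and 9 a negative difference, with a median of -0.07. Tnfrsf14 (HVEM, chr4:154921933-154928563 on mm10), the receptor of Tnfsf14 and of the inhibitory protein BTLA, was the member that DESeq2 called. It had 317, 278 and 296 normalized counts in the wildtype and 651, 649 and 335 in the Mirc11-/- libraries. The groups did not overlap, but library 3 stood much nearer to the wildtype than to the other Mirc11-/- libraries. The mean of the Mirc11-/- group was 1.84 times that of the wildtype (545 ± 182 against 297 ± 19.4), and the log2 difference was 0.81 ± 0.24 (95% interval 0.27 to 1.35). The Benjamini-Hochberg adjusted p was 0.458 by limma, 0.429 by edgeR and 0.0371 by DESeq2, and without Mirc11-/- library 3 limma gave a log2 difference of 1.13 and an adjusted p of 0.00794. The erythroid, mast cell and basophil, and monocyte sums moved in the same order over the Mirc11-/- libraries. Their part in the values of Tnfrsf14 was not tested.

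**Figure D4:**
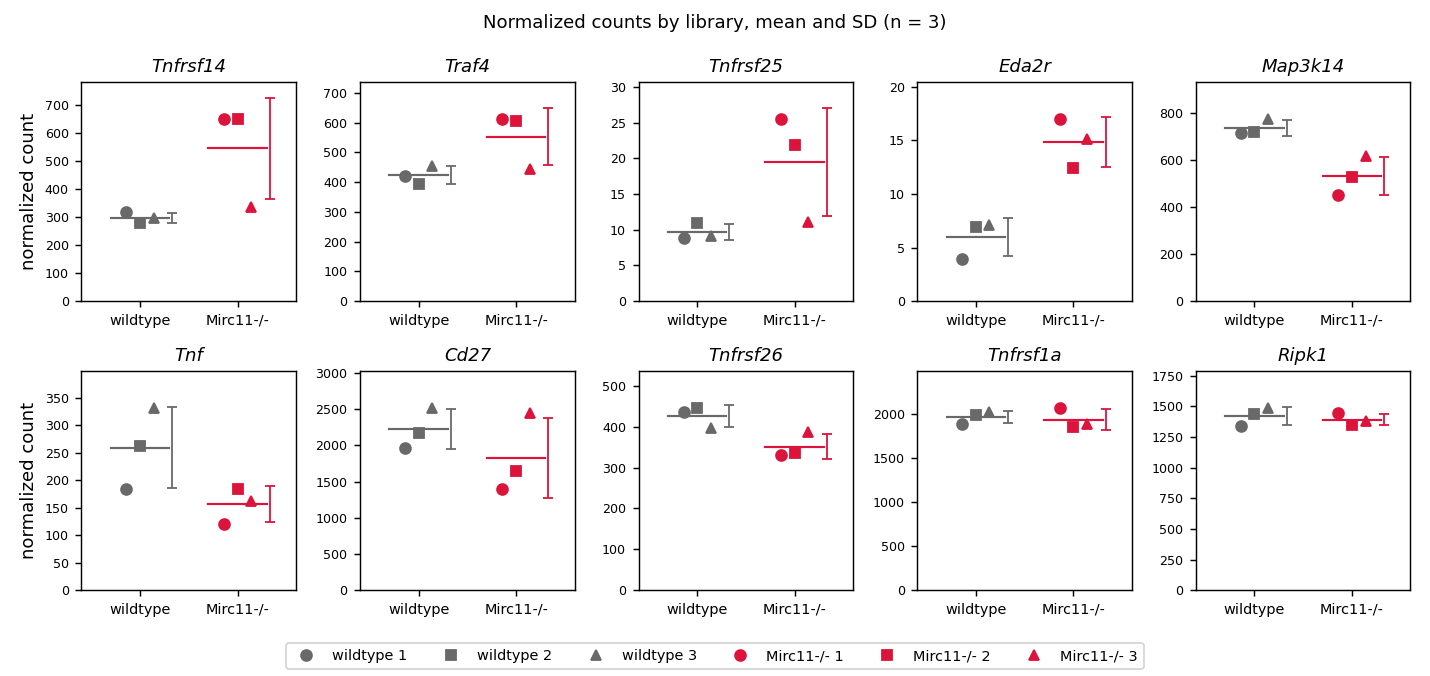
Normalized count of 10 members in each library (points, shape for the replicate number), with the mean (horizontal line) and SD (bar beside it, n = 3 libraries); every axis starts at 0 and has its own range. For Tnfrsf14, Traf4 and Tnfrsf25 the circle and square of the Mirc11-/- group sit above the wildtype while its triangle, library 3, lies near the wildtype, whereas for Eda2r all 3 Mirc11-/- points sit above the wildtype and for Tnfrsf1a and Ripk1 the groups overlap.

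Cd27, the receptor of Cd70 and a marker of multipotent and lymphoid-primed progenitors, showed the opposite order. It was at 1971, 2172 and 2518 normalized counts in the wildtype and 1395, 1649 and 2451 in the Mirc11-/- libraries. Libraries 1 and 2 lay below every wildtype library, and library 3 lay within the wildtype range. The log2 difference of Cd27 was -0.31 ± 0.19 with a limma adjusted p of 0.662, and -0.54 with an adjusted p of 0.0415 without Mirc11-/- library 3. The progenitor genes Cd34 and Flt3 had the same order, at 7475, 9009 and 13380 and at 5614, 6643 and 10820 normalized counts in Mirc11-/- libraries 1 to 3, against wildtype ranges of 12410 to 13794 and 9449 to 12040. The part of the progenitor makeup of the libraries in the value of Cd27 was not tested. Cd70, its only known ligand, had no read.

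The receptors of TNF and lymphotoxin that lack a death domain were well expressed in both genotypes. Tnfrsf1b, the second TNF receptor, was at 1449, 1520 and 1602 normalized counts in the wildtype and 1635, 1368 and 1360 in the Mirc11-/- libraries (log2 -0.07, 95% interval -0.29 to 0.15). Ltbr, the receptor of lymphotoxin and LIGHT, was at 749, 733 and 751 against 688, 665 and 758 (log2 -0.08, 95% interval -0.29 to 0.12). Mirc11-/- libraries 1 and 2 of Ltbr were below the wildtype and library 3 was above it. Ltbr, Cd27 and Tnfrsf1a are neighbours on chromosome 6, between 125232622 and 125362484, and their differences were -0.08, -0.31 and -0.02.

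Of the scarce receptors of this class, none passed the adjusted threshold, and Eda2r, Tnfrsf8 and Tnfrsf17 had libraries that did not overlap between the genotypes. Eda2r, the X-linked receptor of an ectodysplasin A isoform and a known target of p53, was at 3.94, 6.95 and 7.09 normalized counts in the wildtype and 17.0, 12.5 and 15.1 in the Mirc11-/- libraries. The groups did not overlap, and Mirc11-/- library 3 lay between libraries 1 and 2. The part of the cell makeup of the libraries in the values of Eda2r was not tested. The log2 difference was 1.21 ± 0.39 (95% interval 0.32 to 2.10; limma adjusted p = 0.497), on 18 and 45 reads. Tnfrsf8 (CD30), a receptor of activated lymphocytes, was at 0, 1.98 and 5.07 against 11.3, 6.23 and 8.05. Its groups did not overlap, and the log2 difference of 1.83 ± 0.69 rested on 7 and 26 reads (limma adjusted p = 0.546). Tnfrsf17 (BCMA), a receptor of plasma cells, was at 14.8, 14.9 and 9.12 against 20.8, 15.6 and 21.1, with no overlap by a margin of under 1 normalized count (log2 0.55, limma adjusted p = 0.671). Cd40, which B cells and antigen-presenting cells use to receive T cell help, was at 5.32 ± 1.17 and 10.2 ± 4.35, with overlap.

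The remaining receptors of this class overlapped between the genotypes. Tnfrsf12a (Fn14), the TWEAK receptor, was at 64.1, 95.3 and 156 in the wildtype and 53.0, 74.8 and 62.4 in the Mirc11-/- libraries, with a log2 difference of -0.64 (95% interval -1.37 to 0.09). The B cell receptors Tnfrsf13b (TACI) and Tnfrsf13c (BAFF receptor) were at 197 ± 15.5 and 111 ± 10.9 in the wildtype and 186 ± 30.8 and 97.8 ± 34.0 in the Mirc11-/- group. Tnfrsf18 (GITR) and Tnfrsf4 (OX40), which costimulate T cells and lie side by side on chromosome 4, were at 175 and 39.1 in the wildtype and 157 and 29.6 in the Mirc11-/- group. The value of Tnfrsf18 is uncertain, because 27.2% of its exon bases lie opposite another gene model and the libraries were made with a kit that does not mark strand. Tnfrsf11a (RANK) was at 16.3 ± 7.04 and 19.0 ± 3.04, and Tnfrsf19 had 3 and 4 reads.

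The 3 receptors grouped here as decoys stand in a row on chromosome 7, between 143607659 and 143685872. They are near copies of each other, so that reads may be split between them. Tnfrsf26, the one with the highest level, was at 437, 446 and 396 normalized counts in the wildtype and 330, 336 and 387 in the Mirc11-/- libraries. The groups did not overlap, with Mirc11-/- library 3 just under the lowest wildtype library. The Mirc11-/- libraries stood in the order of the stem cell, B cell, dendritic cell and stromal sums, whose part in this value was not tested. The log2 difference was -0.28 ± 0.12 (95% interval -0.54 to -0.02; limma adjusted p = 0.579). Tnfrsf22, at 112, 95.3 and 113 against 96.5, 83.1 and 104, had a difference of -0.18, and Tnfrsf23, at 29.6, 40.7 and 45.6 against 47.3, 42.6 and 42.3, had one of 0.21. Both of these overlapped between the genotypes. Tnfrsf26 and Tnfrsf23 hold a miR-27a match and Tnfrsf22 matches of the other 2 microRNAs.

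Among the 9 adaptors and kinases, Map3k14 (NIK, chr11:103219762-103267472) had the smallest p of any member. It was at 714, 720.5 and 775 normalized counts in the wildtype and 451, 529 and 616 in the Mirc11-/- libraries. Every Mirc11-/- value lay below every wildtype value, and library 3 was the nearest to them. The 3 Mirc11-/- libraries stood in the order of the stem cell, B cell, dendritic cell and stromal sums and of Cd34 and Flt3. The immediate-early sum was also lower in all 3. The part of those genes in the values of Map3k14 was not tested. The mean of the Mirc11-/- group was 0.722 times that of the wildtype, and the log2 difference was -0.48 ± 0.125 (95% interval -0.76 to -0.20). The Benjamini-Hochberg adjusted p was 0.431 by limma, 0.429 by edgeR and 0.107 by DESeq2, and without Mirc11-/- library 3 limma gave -0.59 with an adjusted p of 0.0242. Map3k14 holds a match to miR-27a and one to miR-24, printed above, and the part of these microRNAs in its values was not tested.

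Traf4, an adaptor known from epithelial cells and development, had 421, 395 and 455 normalized counts in the wildtype and 613, 604 and 443 in the Mirc11-/- libraries. Libraries 1 and 2 lay above the wildtype and library 3 lay within its range. The log2 difference was 0.37 ± 0.14 with a limma adjusted p of 0.566, and 0.52 with an adjusted p of 0.0403 without Mirc11-/- library 3. As for Tnfrsf14, this was the order of the erythroid, mast cell and basophil, and monocyte sums. The part of those genes in the value was not tested.

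Of the other adaptors and kinases, Traf2, Traf3, Tradd, Ripk1 and Traf7 had 95% intervals within 0.3 of 0 on the log2 scale. Traf2 and Traf3, which together keep Map3k14 protein low in resting cells, were at 844 ± 49.9 and 1168 ± 91.0 in the wildtype and 858 ± 14.5 and 1178 ± 30.6 in the Mirc11-/- group, with 95% intervals of -0.17 to 0.22 and -0.18 to 0.21. Tradd was at 554, 505 and 590 normalized counts in the wildtype and 538, 546 and 598 in the Mirc11-/- libraries (95% interval -0.21 to 0.27). Ripk1, the kinase that decides between NF-κB signaling and cell death at TNFR1, was at 1339, 1434 and 1486 against 1441, 1351 and 1378 (95% interval -0.21 to 0.15). Traf7, the member with the highest normalized count, was at 2366, 2414 and 2477 against 2487, 2373 and 2313 (95% interval -0.18 to 0.15). Traf1, which NF-κB is known to induce, and Traf5 were at 44.4 ± 15.3 and 139 ± 34.5 in the wildtype and 48.5 ± 10.6 and 157 ± 13.7 in the Mirc11-/- group. Their 95% intervals were wider, at -0.55 to 0.86 and -0.27 to 0.66. Tradd lies on chromosome 8, as Mirc11 does.

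Read as ligand and receptor pairs, several axes had reads mostly for their receptor. Cd27, Fas, Cd40 and Tnfrsf18 had reads in every library, whereas their ligands Cd70, Fasl, Cd40lg and Tnfsf18 had at most 1.04 normalized counts in any. The reverse held for Tnfsf9, at 33.7 to 61.8, whose receptor Tnfrsf9 was at 0 to 3.04. Cd40 was itself scarce, with 16 reads over the wildtype and 31 over the Mirc11-/- libraries. These counts were not divided by exon length. For TNF, LIGHT, TRAIL, TWEAK, and APRIL and BAFF, a ligand and a receptor both had reads in each library. For lymphotoxin, Ltb and Ltbr had reads in each library, but Lta was at 0 in Mirc11-/- library 1. For TNF, the ligand had the log2 difference of -0.71 and its receptors had -0.02 and -0.07. For LIGHT, the ligand had 0.00 and its receptors Tnfrsf14 and Ltbr had 0.81 and -0.08, and limma called none of these over the 6 libraries.

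The promoters of the members were searched for a κB-like motif, GGG followed by 2 bases of any kind and TTTCC, on either strand, in the RefSeq windows of 250 bases before to 50 after the start site, since NF-κB is the factor that most of these receptors activate. Promoter entries matched 38 members, and 4 of them (10.5%) held the motif, against 1.90% of 27025 genes. These were Ltb, Traf2, Traf3 and Tnfrsf25. The motif and the bases around it are shown for those 3 in which it began before the start site, at chr17:35194420-35194429 for Ltb, chr12:111166360-111166369 for Traf3 and chr4:152115716-152115725 for Tnfrsf25 (GRCm38.p6, 5′ to 3′ in the sense of the gene, motif in capitals).
Ltb: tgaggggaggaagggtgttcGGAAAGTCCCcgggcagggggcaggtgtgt
Traf3: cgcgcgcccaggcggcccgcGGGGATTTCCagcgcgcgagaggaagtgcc
Tnfrsf25: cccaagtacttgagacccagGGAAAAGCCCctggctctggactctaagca
In Ltb and Tnfrsf25 the motif is on the opposite strand to the gene. The log2 differences of Ltb, Traf3, Traf2 and Tnfrsf25 were 0.07, 0.01, 0.02 and 0.87.

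Members with seed matches lay on both sides of 0. Those with a match to any of the 3 microRNAs had a median log2 difference of -0.02, with 12 above 0 and 14 below it, and those without had one of 0.04. Over all genes the medians were 0.02 with and -0.01 without a match. Among the matched members with an unadjusted p under 0.05 by limma, Eda2r and Tnfrsf8 had positive differences, and Map3k14, Tnf and Tnfrsf26 had negative ones. Tnfrsf1a, Tnfrsf1b, Ripk1 and Traf3, which hold matches too, had 95% intervals within 0.3 of 0.

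Outside the family, 55 of 56 listed symbols of TNF receptor signaling were tested, and the other, Fam105b, was not a symbol of these data. The genes ran from the caspases and ubiquitin ligases at the receptor to the NF-κB subunits and the stress kinases. limma, edgeR and DESeq2 called none of them in either direction at an adjusted p of 0.05, while 1 was higher (1.82%, against 4.15% of all genes) and 4 were lower (7.27%, against 4.09%) at an unadjusted p under 0.05 by limma. Their median log2 difference was -0.06, with 17 above 0 and 38 below it (69.1%, against 49.5% of all genes). The 4 with the smallest p were Tnfaip3, Casp8, Nfkb2 and Eda. Tnfaip3 (A20), the ubiquitin-editing enzyme that ends NF-κB signaling and is itself induced by it, was at 588, 921 and 1163 normalized counts in the wildtype and 464, 603 and 499 in the Mirc11-/- libraries. Its groups overlapped by a small margin, and the difference was -0.72 ± 0.22 on the log2 scale (adjusted p = 0.479 by limma and 0.0714 by DESeq2). Casp8, the initiator caspase of the death receptors, was at 2555, 2643 and 2371 against 2022, 2076 and 2329 (log2 -0.24). Nfkb2, the precursor that Map3k14 signaling matures to p52, was at 670, 689 and 802 against 530, 609 and 628 (log2 -0.29). Neither Casp8 nor Nfkb2 overlapped between the genotypes. Eda, whose splice form is the ligand of Eda2r, was at 44.4, 23.8 and 25.3 against 65.3, 59.2 and 40.2, with overlap (log2 0.82).

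A list of 16 genes that NF-κB is known to induce had 4 differences above 0 and 12 below it (75%, against 49.5% of all genes), with a median of -0.17. Tnfaip3, Tnip1, Birc3, Nfkb2 and Relb are also in the TNF receptor signaling list above, so the lists are not independent. None of the 16 passed the adjusted threshold by limma, edgeR or DESeq2. At an unadjusted p under 0.05 by limma, 4 were lower (25%, against 4.09% of all genes) and none higher (against 4.15%). These 4 were Nfkbiz, Tnfaip3, Zc3h12a and Nfkb2. Nfkbiz, an inducible regulator of NF-κB target genes, was at 1634, 2428 and 3678 normalized counts in the wildtype and 711, 1424 and 1339 in the Mirc11-/- libraries. Each Mirc11-/- value lay below every wildtype value, and the log2 difference was -1.14 (limma adjusted p = 0.444). Zc3h12a (Regnase-1), which degrades inflammatory mRNAs, was at 320, 459 and 635 against 230, 327 and 296, with overlap (log2 -0.69). Like Tnf, several of these genes are switched on within minutes of a stimulus, and the immediate-early sum was lower in the same libraries; its part in these values was not tested. Without Mirc11-/- library 3, 1 gene of the list, Tnfaip2, was called as higher (adjusted p = 0.0191 by limma). Tnfaip2 was at 2787, 2574 and 1248 normalized counts in Mirc11-/- libraries 1 to 3. This was the order of the erythroid, mast cell and basophil, and monocyte sums, whose part in this value was not tested.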

How the data were processed

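Cells were sorted on a flow cytometer, and libraries were made with poly(A) selection and a kit that does not mark strand and sequenced in pairs. Alignment with STAR to mm10 and the use of Cufflinks are named in the processing notes of the submitters (their versions and the gene annotation: not given in the sources used here). Although the deposited table carries FPKM in its name, the authors' signal for a gene is its read number over a scaling factor of each library, and length does not enter: 100% of the values were whole multiples, within 0.001, of what 1 read is worth. Levels per kb used the merged exons of GENCODE vM21.

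Values were tested as log2(value + 1) with limma 3.58.1 (R 4.3.3; empirical Bayes with a mean-variance trend) over 15662 symbols with a mean of at least 1, two-sided, with Benjamini-Hochberg adjustment over all of them at 0.05. edgeR 4.0.16 (quasi-likelihood) and DESeq2 1.42.0 were run on the recovered reads. Other alternatives were pseudocounts of 0.1 and 0.5, no filter, a filter at a mean of 10, median-ratio and TMM scaling, no trend, a replicate block, and each library left out in turn. Fits were tested on simulated data. Values were given in every library for members with an unadjusted p under 0.05 or no overlap, the 3 highest per kb in each role, and Tnf, and for some others chosen after their values were seen; of the pathway lists the 4 genes with the smallest p were named. Members, lists and rules were chosen with earlier results of these data known. The RNA preparations were separate, so p-values measure the spread between pools of mice.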

Additional observations from a re-analysis of the deposited data

How the results depend on the processing

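At the adjusted threshold limma called 1 gene as higher and 4 as lower over all genes, against 8 higher with no filter, 2 and 2 with no trend, 3 and 27 with the replicate block, and 37 and 85 by DESeq2, and leaving out 1 library gave 1 to 303 higher and 0 to 228 lower, the highest of both without Mirc11-/- library 3. Of the members, DESeq2 called 1 as higher, and leaving out 1 library gave 0 to 2 higher and 0 to 2 lower. At an unadjusted p under 0.05, the 4 members that were higher became 2 with no filter and 2 to 6 with 1 library left out, and the 3 that were lower became 5 with the replicate block and 1 to 7 with 1 library left out. Of the NF-κB targets, the block called 1 as lower, and leaving out 1 library gave 0 to 1 higher. Libraries with the same replicate number share only that number: the correlations of their deviations were 0.0664, -0.0632 and 0.0969, and Mirc11-/- library 1 correlated best with wildtype library 2 (0.0741). With the replicate block no member was called.

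The log2 difference turned sign at a pseudocount of 0.1 for Lta (-0.49), by edgeR and DESeq2 for Tnfrsf19 (0.38 and 0.47), and by both for Tnfsf14 (-0.0039 and -0.0031) and Tnfsf9 (-0.020 and -0.019); the cause was not tested. With 1 library left out, 25 members kept their sign and 21 did not.
The lowest and highest log2 differences of those 21 with 1 library left out were Fas (-0.17 to 0.45), Lta (-0.63 to 0.96), Ltb (-0.19 to 0.39), Ripk1 (-0.071 to 0.0038), Tnfrsf11a (-0.017 to 0.58), Tnfrsf13b (-0.18 to 0.0496), Tnfrsf19 (-0.49 to 0.33), Tnfrsf1a (-0.071 to 0.0065), Tnfrsf21 (-0.092 to 0.049), Tnfsf12 (-0.038 to 0.26). The others were Tnfsf12Tnfsf13 (-0.014 to 0.13), Tnfsf13 (-0.012 to 0.20), Tnfsf13b (-0.055 to 0.21), Tnfsf14 (-0.13 to 0.17), Tnfsf4 (-0.00302 to 0.39), Tnfsf9 (-0.20 to 0.22), Tradd (-0.0296 to 0.082), Traf1 (-0.019 to 0.41), Traf2 (-0.016 to 0.069), Traf3 (-0.045 to 0.068) and Traf7 (-0.046 to 0.0065).
These reversals were all in members whose interval held 0. Depth limits the scarce members, whose counts in a group were as low as 3 reads, and the spread between pools limits the others.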
